A study of Oryza sativa Japonica Group with 6 samples.

Results

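Type-A response regulators are the early targets and the brakes of cytokinin signalling. Here 6 of them were compared in rice roots between nitrogen supply and 1 h without nitrogen, and no earlier time was measured. The family was taken by gene name, as RR1, RR2, RR3, RR4, RR5, RR6, RR7, RR9 or RR10, matched to a symbol or synonym of the gene table with the leading Os ignored. Of these 9 names, 8 were found in the gene table and 6 were tied to a probe set, 1 probe set each, among 17905 genes measured. RR3, RR7 and RR10 are not analysed here. The plants were 10-day-old TNG67 seedlings, a japonica cultivar, grown hydroponically with NH4NO3 (+N). For −N they were transferred for 1 h to the same solution lacking nitrogen. The +N arrays also carry a treatment time of 1 h, although the published methods describe a transfer to −N only. Each treatment had 3 biological replicates, and RNA of whole roots from each was read on an array of its own, the GeneChip Rice Genome Array, on which a probe set is a group of short probes against a transcript. For +N replicate 3 a label gives 0.5 h, and −N replicates 1 and 2 are titled as a reanalysis. Because the roots were taken whole, fewer cells of a type and less RNA per cell cannot be told apart in any value given here.

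Cytokinin is perceived by histidine kinase receptors, and the signal passes as a phosphate group through histidine phosphotransfer proteins to response regulators in the nucleus. Type-B response regulators carry a DNA-binding domain and switch on target genes, among them the type-A genes. Type-A proteins have the phosphate-receiving domain without the DNA-binding part and dampen the pathway, which makes them a negative feedback loop. In rice roots nitrogen supply is known to raise cytokinin synthesis, and type-A transcripts are widely used as a readout of the cytokinin response. The values below are linear intensities as deposited by the authors, in arbitrary units, and differences are −N minus +N on the log2 scale. The test was the moderated test of limma across all 17905 genes, two-sided, with Benjamini-Hochberg adjustment and a threshold of 0.05.

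None of the 6 type-A genes passed this test, which called 0.106% of all genes. At an unadjusted p under 0.05 in limma, 0 of the 6 were higher and 1 was lower in −N, against 2.17% and 3.08% of all genes. With the replicate number entered as a block, 1 was higher and 1 was lower at that level, against 12.8% and 7.89% of all genes. RR9 was lower and RR1 was higher in −N on every array, each by less than 2-fold, while RR2, RR4, RR5 and RR6 overlapped between the treatments. Of all genes, 3.98% were higher and 5.32% were lower without overlap. No member was 2-fold apart, as 2.16% of all genes were.

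RR9 (LOC4349747) encodes a type-A regulator that acts with its near-identical copy RR10 as a negative regulator of cytokinin signalling and salt tolerance in rice. Its intensity was 403, 353 and 478 in +N replicates 1, 2 and 3, and 290, 196 and 301 in −N replicates 1, 2 and 3. Every −N array lay below every +N array, and replicate 2 was the lowest of each group. The means were 411 ± 62.7 (SD, n = 3) and 262 ± 57.5 (SD, n = 3). By geometric means RR9 was 36.9% lower in −N, a log2 difference of −0.66 (SE 0.25, 95% interval −1.24 to −0.09). It had an unadjusted p of 0.0293 and an adjusted p of 0.791 in limma, so it did not pass over all genes. Of all genes, 5.66% had a log2 difference of this size or larger in either direction. The differences within the pairs of equal replicate number were −0.47, −0.85 and −0.67. When limma blocked by replicate number the interval narrowed to between −0.95 and −0.38, and the adjusted p of 0.0901 still missed the threshold that 0.62% of all genes passed in that fit. Since RR9 and RR10 are near-identical in sequence, RNA of RR10 may contribute to this probe set.

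RR1 (LOC4335937) encodes a type-A regulator that acts in crown root initiation in rice downstream of the transcription factor CRL5. Its intensity was 40.7, 44.3 and 54.6 in +N replicates 1, 2 and 3, and 57.9, 58.6 and 70.6 in −N replicates 1, 2 and 3. The lowest −N array was above the highest +N array, by a narrow margin, and all of these values were dim, although above the median of the array they came from. The means were 46.5 ± 7.21 (SD, n = 3) and 62.4 ± 7.16 (SD, n = 3). RR1 was 34.6% higher in −N by geometric means, a log2 difference of 0.43 (SE 0.21, 95% interval −0.07 to 0.93). The unadjusted p was 0.0825 and the adjusted p was 1.00 in limma. The differences of 0.51, 0.40 and 0.37 in the 3 pairs were close to each other. In the blocked fit of limma the interval was 0.19 to 0.67 and the adjusted p was 0.119, so RR1 did not pass there either. When 16 was added to the intensities before the log2 step, which weighs dim probe sets less, its log2 difference was 0.33.

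**Figure D1:**
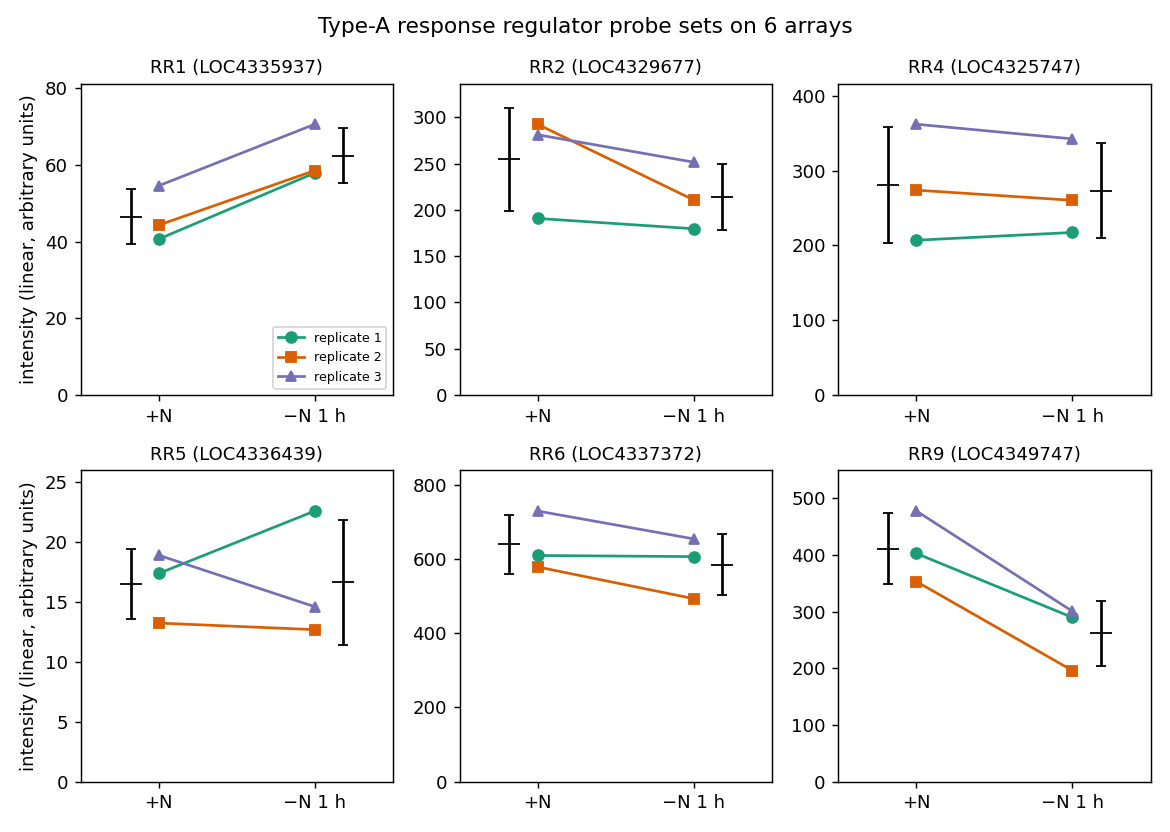
Linear intensity (y axis, arbitrary units, from 0) of the 6 type-A probe sets in +N and −N (x axis), with a line joining the arrays of equal replicate number and black bars for the mean and SD of 3 arrays. RR9 is lower and RR1 is higher in −N with no overlap, and the lines of RR2, RR4, RR5 and RR6 run over a common range in both treatments.

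RR2 and RR6 were a little lower in −N in all 3 pairs, with overlapping groups. RR2 (LOC4329677) is known in rice as a gene that the crown root regulator WOX11 represses. It had intensities of 191, 292 and 281 in +N and 180, 211 and 252 in −N, so that replicate 1 was the lowest of each group. Its log2 difference was −0.24 (SE 0.25, 95% interval −0.83 to 0.35, adjusted p = 1.00 in limma). RR6 (LOC4337372), whose overexpression in rice lowers cytokinin sensitivity, had intensities of 610, 579 and 730 in +N and 607, 493 and 655 in −N. The 2 arrays of replicate 1 were nearly equal for RR6, with a pair difference of −0.01, and the other pairs differed by −0.23 and −0.16. Its log2 difference was −0.13 (SE 0.22, 95% interval −0.63 to 0.37, adjusted p = 1.00 in limma).

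RR4 and RR5 had pair differences of both signs. RR4 (LOC4325747) was read by a probe set whose suffix marks probes that can match more than 1 related transcript. Its intensities of 207, 274 and 362 in +N and 217, 260 and 342 in −N ran in the same order over the replicate numbers in each treatment. The arrays of different number were thus far apart, and the arrays of equal number were close. The log2 difference of RR4 was −0.03 (SE 0.28, 95% interval −0.69 to 0.63), and with the block the interval was −0.27 to 0.21. RR5 (LOC4336439) was the only member below the array median, on all 6 arrays. Its intensities were 17.4, 13.2 and 18.9 in +N and 22.6, 12.7 and 14.6 in −N. Its pairs differed by 0.38, −0.06 and −0.37, and its log2 difference was −0.02 (SE 0.28, 95% interval −0.67 to 0.63). At this brightness a difference in RR5 could not be resolved from the spread between arrays. Adjusted p-values in limma were 1.00 for both genes.

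The intervals set a limit on what the 3 arrays of each group could hide. For RR1, RR2, RR4, RR5 and RR6 the 95% interval of limma lay within a 2-fold change in either direction, and for RR9 it reached past 2-fold on the lower side. In the blocked fit the intervals of all 6 lay within 2-fold. These intervals are not adjusted for the number of genes. They do not show that the 4 overlapping genes were alike in the 2 treatments, since smaller differences fit within them. For RR5, below every array median, and for the dim RR1 the interval limits the difference in measured intensity. Whether it limits the difference in RNA was not tested.

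**Figure D2:**
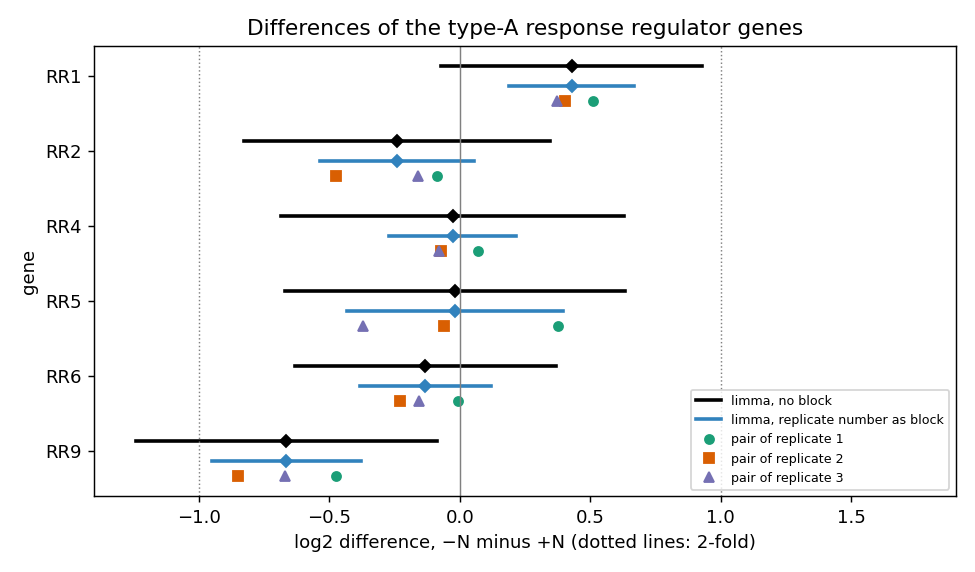
Log2 difference of each type-A gene (x axis, −N minus +N), with the 95% interval of limma in the unblocked fit (black) and in the fit blocked by replicate number (blue), and the 3 pair differences as coloured points. All 3 pairs of RR9 lie between −0.85 and −0.47, all 3 pairs of RR1 lie between 0.37 and 0.51, and the fitted differences of the other genes lie nearer 0, although single pairs of RR2 and RR5 reach −0.47 and 0.38.

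The members differed in direction among themselves. Of the 6, 1 was higher and 3 were lower in −N in all 3 pairs, where 26.5% and 17.5% of all genes were, and 2 were mixed. Their median log2 difference was −0.08, beside 0.03 over all genes, and single members ran from −0.66 to 0.43. The mean of the other 5 members gives a reference inside each pair. Against it RR9 was lower by −0.65, −0.76 and −0.59 on the log2 scale in pairs 1, 2 and 3. RR1 was higher than the mean of its 5 relatives by 0.53, 0.74 and 0.66 in the same pairs. These 2 genes were picked for their values, so their distances from the relatives are a description. Each of the 2 is also among the 5 relatives of the other, which widens both distances.

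The spread of the members ran largely along the replicate number. Replicate 3 was the highest array of its group for 5 of 6 members in +N and for 5 of 6 in −N, and for 4 of 6 in both. The share of all genes with this order was not counted. Same-numbered arrays deviated together over all probe sets, so the order cannot be read as particular to the members. For RR4 the SD within a treatment was 0.37 on the log2 scale, while the SD of its pair differences was 0.09. RR1 had an SD within a treatment of 0.19 and an SD of pair differences of 0.07, and RR9 had 0.29 and 0.19. In RR5 the corresponding values were 0.36 and 0.38, and the width of its 95% interval was 1.30 in the unblocked fit and 0.83 in the blocked one. The SD of a difference between 2 unlinked arrays is larger than that of single arrays. Near-equal values therefore do not show a lack of pairing. Both arrays of replicate 1 stood apart from the other 4 on the first principal component of all probe sets, which held 55.7% of the variance. Without these 2 arrays the log2 difference was −0.76 for RR9 and 0.39 for RR1. Without +N replicate 3, the array with the differing time in its label, it was −0.55 for RR9 and 0.55 for RR1 (adjusted p = 1.00 for each in limma).

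The other parts of the cytokinin pathway were read from the same fit, to place the type-A genes among the steps before and around them. In all, 27 further pathway genes were measured, and none passed in limma with or without the block. At an unadjusted p under 0.05 in limma, 1 was higher and 0 were lower in −N without the block (2.17% and 3.08% of all genes), and 3 were higher and 1 was lower with it (12.8% and 7.89% of all genes). The groups did not overlap for 1 gene that was higher and 1 that was lower, as for 3.98% and 5.32% of all genes. The median log2 difference of the 27 genes was 0.08.

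Upstream of the response regulators, the histidine kinase genes HK3, HK4 and HK5 had positive log2 differences. So had CRL4, a receptor-like kinase gene put in the same list. These differences were between 0.08 for CRL4 and 0.35 for HK5, with none past the test. Of all 17905 genes, 9965 had a positive log2 difference. HK5 (LOC4348447), a cytokinin receptor gene, had intensities of 337, 566 and 497 in +N and 388, 875 and 585 in −N, a log2 difference of 0.35 (SE 0.35), and that of HK4 was 0.18 (SE 0.26). These 2 differences rested much on single arrays, since HK5 ran from 0.061 without −N replicate 2 to 0.65 without −N replicate 1, and HK4 from 0.0017 without +N replicate 1 to 0.36 without −N replicate 1. HK5 was higher in −N in every pair, and the lowest array of each treatment was replicate 1. Of 3 genes in the phosphotransfer list, AHP1 had a log2 difference of −0.25 (SE 0.26). PHP5, whose name marks a pseudo-phosphotransfer protein, had 0.24 (SE 0.47). The 5 type-B genes, which drive type-A transcription, had a median of 0.04, which lay between −0.14 without −N replicate 2 and 0.25 without −N replicate 1, and ran from −0.23 for RR33 (SE 0.24) to 0.12 for RR22 (SE 0.26). RR33 lay below the median of all 6 arrays. The 2 type-C genes, RR41 and RR42, which are related to type-A regulators in their receiver domain, had log2 differences of −0.10 (SE 0.23) and 0.23 (SE 0.56), and RR41 too lay below every array median. HK5, AHP1 and RR41 were read by probe sets with the same suffix as that of RR4.

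Of the measured genes that set the hormone level, CKX5 (LOC4327887) had the lowest unadjusted p in limma (0.0350). It encodes a cytokinin oxidase, an enzyme that breaks cytokinin down. Its intensities were 51.8, 58.4 and 37.3 in +N and 65.9, 79.1 and 76.3 in −N. All −N arrays were above all +N arrays, with a log2 difference of 0.61 (SE 0.24, adjusted p = 0.834 in limma). These values were dim, as those of RR1 were. The log2 difference of CKX5 was 0.47 when 16 was added before the log2 step, and 0.42 without +N replicate 3. CKX11, another oxidase gene, had a log2 difference of −0.46 (SE 0.34), so the 5 measured oxidase genes did not share a direction. Synthesis genes of the IPT and CYP735A families are not analysed here. LOG-type enzymes release active cytokinin from its nucleotide. LOGL1 (LOC4327684), read by a probe set whose suffix marks probes shared with other sequences, was lower on all −N arrays by a narrow margin, with intensities of 951, 1435 and 1123 in +N and 917, 950 and 895 in −N, a log2 difference of −0.33 (SE 0.22, adjusted p = 1.00 in limma). LOGL9 (LOC4347769) had the widest difference of the pathway at 1.11 (SE 0.54). Its intensities of 88.7, 26.8 and 19.9 in +N and 56.2, 101 and 84.8 in −N overlapped, because replicate 1 went the other way from replicates 2 and 3. Without both arrays of replicate 1 and with the block, LOGL9 had a log2 difference of 2.00 and passed in limma (adjusted p = 0.0388), but the same arrays without the block did not pass (adjusted p = 0.0867). When 1 array was left out its log2 difference ran from 0.68 without +N replicate 3 to 1.76 without +N replicate 1, and it passed in none of these fits. The pseudo-response regulators, clock proteins with a related receiver domain, had 4 negative log2 differences between −0.14 and −0.04, and none passed. PRR73 had −0.14 (SE 0.39) and PRR95 had −0.10 (SE 0.62). Of all 17905 genes, 7940 had a negative log2 difference.

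**Figure D3:**
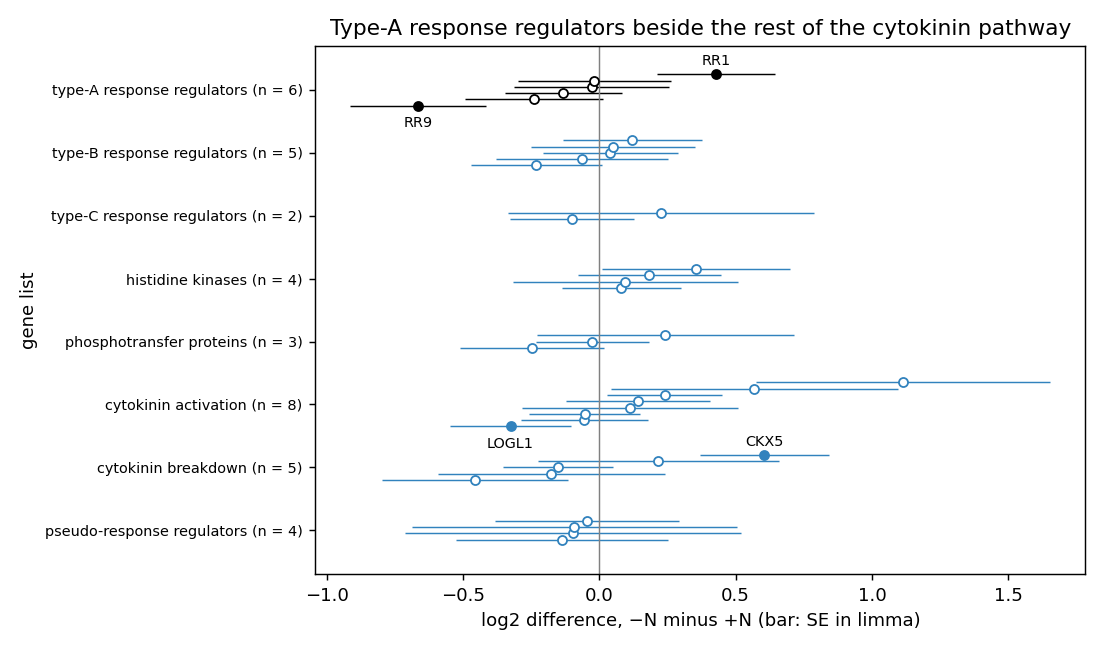
Log2 difference of each measured gene of the cytokinin pathway and of the pseudo-response regulators (x axis, −N minus +N) by gene list (y axis), with the SE of limma as bars and filled points where the arrays of the treatments do not overlap. RR9 and RR1 lie on opposite sides of 0, and the other type-A genes cluster near 0. CKX5 and LOGL1 are the other genes without overlap. The histidine kinase list includes CRL4, and the phosphotransfer list includes PHP5.

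The tissue label was checked with 12 root marker names, of which 9 were measured. Root markers differed widely in brightness. The silicon transporter gene LSI1, a root gene, had intensities between 11842 and 16384. SCR1, between 13.7 and 28.2, lay below the median of all 6 arrays, and PT6 was above it on 4 and IRT1 on 5. IRT1 was higher on every −N array (log2 difference 2.01, SE 0.49, adjusted p = 0.420 in limma), and AMT1-1 had −0.66 (SE 0.31). Of the 9, 6 had a positive and 3 a negative log2 difference. The summed intensity of the 9 root markers was between 32647 and 39815 in +N and between 34531 and 35587 in −N. Of 14 green shoot marker names, 4 were measured (RBCS, RCA, CAB2R and PPDK1), and all 4 had a negative log2 difference, with a median of −0.84. Their summed intensity was between 13926 and 22365 in +N and between 7460 and 11950 in −N, so these ranges did not overlap, as those of RR9 did not. CAB2R made up most of this sum on every array, with 10785 to 14903 in +N and 5202 to 9656 in −N. RBCS and CAB2R did not overlap between the treatments, whereas RCA and PPDK1 overlapped. RBCS and RCA were read by probe sets with the same suffix as that of LOGL1. PPDK1 had pair differences of both signs, and RCA had 3457 in +N replicate 1 against 845 and 666 in +N replicates 2 and 3. All 4 green shoot markers were above the median of all 6 arrays, and their part in the values of RR9 was not tested.

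The genes with a profile most like the mean of the 6 members over the 6 arrays were sought among 2453 genes with a name. The 5 highest Pearson correlations were those of Lhs1, OsZIP1, OsCASPL1C1, CRSH3 and OPR7, between 0.93 and 0.96. The arrays share their replicate numbers, so these values describe likeness over 6 points that are not independent. Their own log2 differences were between −0.35 and −0.06.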

How the data were processed

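The labels gave treatment and replicate number. The deposited values are linear intensities, 1 for each of 57381 probe sets and array. GCOS and RMA appear in the submitters' processing notes without a version or an order. How the authors combined the probes is not given in the sources used here, and the scale was read from the values. Intensities were taken to log2 without a pseudocount, 187 control probe sets were left out, and the brightest probe set stood for each of the 17905 genes. Probe sets with several symbols (95) or none (34850) were not named. Names came from the platform annotation and from RefSeq genes of ASM3414082v1, whose coordinates were not used.

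The test used limma 3.58.1 (lmFit, then eBayes) under R 4.3.3. The labels call the replicates biological without saying whether plants were grown separately. A p-value therefore weighs a difference only against the spread of these samples, and that spread may be technical. Precision is limited by 3 arrays in each group. Array medians were between 33.3 and 35.2 and upper quartiles between 131 and 180. Same-numbered arrays deviated together over all probe sets (correlations 0.785, 0.664 and 0.653), so the numbers pair the samples, which comes from the data and not from the labels. The test without a block was kept as the reported one. Up to 4 genes of each pathway list with the lowest unadjusted p could be named. HP1 and HP2 were dropped as ambiguous synonyms of AHP1 and AHP2. The members and lists were chosen with earlier results of these data known. The script was tested on simulated data.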

Additional observations from a re-analysis of the deposited data

How the results depend on the processing

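None of the 6 type-A genes passed in limma under any alternative run: quantile normalization, median centring, the replicate block, averaged probe sets, a filter on low values, a pseudocount of 16, an intensity trend, every probe set tested, each array left out, and, added after seeing the data, both arrays of 1 number left out. RR1, RR2, RR6 and RR9 kept their direction in all of these. Their log2 differences ran from 0.33 to 0.55, −0.44 to −0.12, −0.22 to −0.01 and −0.78 to −0.47, with lowest adjusted p-values of 0.119, 0.291, 0.411 and 0.0815. RR5 failed the filter on low values. The median of the members was −0.21 without both arrays of replicate 1, with or without the block, and between −0.21 and 0.027 when 1 array was left out.

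Over all genes, 4 were higher and 15 lower in the reported test. Quantile normalization gave 2 higher, the intensity trend gave 23 lower, and every probe set tested gave 0 higher and 4 lower. The replicate block gave 38 higher and 73 lower (63 and 44 without both arrays of replicate 1, and 0 and 0 without those of replicate 2 or 3). With all 6 arrays it changed no call of a gene named here. Leaving out 1 array gave 0 to 10 higher and 0 to 14 lower, with none left except without −N replicate 1, and leaving out both arrays of replicate 1 without a block gave 0 and 0.

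Leaving out 1 array moved the list medians between −0.14 and 0.25 (type-B), −0.14 and 0.29 (type-C) and 0.023 and 0.41 (histidine kinases with CRL4). The other list medians moved between −0.17 and 0.078 (phosphotransfer with PHP5), 0.0085 and 0.31 (LOG), −0.25 and 0.19 (oxidases) and −0.44 and 0.37 (pseudo-response regulators). With their direction kept, AHP1 ran from −0.44 to −0.073, RR33 from −0.33 to −0.03, LOGL1 from −0.46 to −0.17, CKX11 from −0.80 to −0.23 and CKX5 from 0.42 to 0.74. Directions near 0 turned when 1 array was left out, where log2 differences ran from −0.23 to 0.17 for RR4, −0.26 to 0.15 for RR5, −0.042 to 0.29 for RR22, −0.18 to 0.057 for RR41, −0.27 to 0.75 for RR42, −0.17 to 0.68 for PHP5, −0.41 to 0.25 for PRR73 and −0.51 to 0.58 for PRR95. PRR95 was 0.19 without both arrays of replicate 1, with or without the block. With the block, RR5 was 0.0031 and RR22 −0.046 without both arrays of replicate 2, and RR5 was 0.16 without those of replicate 3. The cause was not tested.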
